A study of Mus musculus with 8 samples.

Results

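The TAM receptors Axl, Mertk and Tyro3 and their ligands Gas6 and Pros1 were followed through 8 mouse tumors driven by an Ewsr1-Atf1 fusion. The 5 genes were listed by name and matched by symbol to the Ensembl identifiers of a count table with 49671 identifiers. All 5 were found, and all 5 were among the 11505 genes that passed the filter on low counts. The tumors carried Cre expressed from the Hprt locus together with loxP sites in Ewsr1 and Atf1 (genotype HprtCre; Ewsr1-loxP; Atf1-loxP). No drug was given. The tissue was frozen when the primary tumor caused morbidity, and total RNA was sequenced after ribosomal RNA had been depleted. The labels give neither age nor strain, and they name no cell type of origin and no control group, so the tumors could only be compared with each other. They are titled 1, 2L, 2R, 3, 4a, 4b, 5 and 6. What a shared number stands for is not stated, nor that tumors came from separate animals, and p-values below measure only the spread between these libraries.

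TAM receptors are receptor tyrosine kinases of the plasma membrane. Their ligands are secreted proteins that bind the receptor at one end and, through a vitamin K-dependent Gla domain, phosphatidylserine on dying cells or platelets at the other. Gas6 activates all 3 receptors, whereas Pros1, also known as anticoagulant protein S, acts mainly through Mertk and Tyro3. Mertk is best known from macrophages, where it serves the removal of apoptotic cells. Axl is present in many mesenchymal cells and cancers, and Tyro3 is most abundant in the nervous system.

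Library totals ranged from 4817902 counts in tumor 3 to 19682149 in 2L. Mitochondrial and a few abundant noncoding RNAs took 74.9% of the counts of library 3 and 4.45% to 39.7% of the others, so values of tumor 3 rest on the fewest counts. Library 3 held the lowest level for 31.2% of the 11505 genes and the highest for 29.6%. Levels are given as CPM, counts relative to library size, after TMM scaling for library composition, and per kb of exon wherever genes are compared with each other. In whole tumors, fewer cells of a type and less RNA per cell cannot be told apart.

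Promoter sequences are shown for the most and the least abundant receptor and for the ligand of highest mean level. These genes were picked by their place among the receptors and among the ligands. The sequences come from RefSeq on GRCm38.p6, from 250 bases before to 50 bases after the gene's start in RefSeq, 5′ to 3′ on the gene's strand. That start lies 1781 bases downstream of the annotated gene start given below for Tyro3, and within 45 bases of it for the other 4 genes. Capitals mark the GC box GGGCGG on either strand, a motif bound by Sp1-type factors.
Axl, chr7:25788684-25788983, minus strand: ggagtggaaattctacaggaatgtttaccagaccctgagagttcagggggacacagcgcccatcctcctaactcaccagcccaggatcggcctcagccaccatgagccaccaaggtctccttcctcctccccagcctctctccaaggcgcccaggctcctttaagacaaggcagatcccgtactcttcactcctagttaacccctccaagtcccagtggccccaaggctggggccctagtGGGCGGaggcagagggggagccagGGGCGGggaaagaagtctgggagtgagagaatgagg
Tyro3, chr2:119799264-119799563, plus strand: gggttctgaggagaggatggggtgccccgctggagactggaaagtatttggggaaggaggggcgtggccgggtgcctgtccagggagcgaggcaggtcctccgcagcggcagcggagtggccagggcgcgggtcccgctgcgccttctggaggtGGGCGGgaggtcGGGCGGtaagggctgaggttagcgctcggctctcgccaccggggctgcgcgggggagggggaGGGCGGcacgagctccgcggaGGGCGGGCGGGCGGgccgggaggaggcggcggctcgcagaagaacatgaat
Pros1, chr16:62854057-62854356, plus strand: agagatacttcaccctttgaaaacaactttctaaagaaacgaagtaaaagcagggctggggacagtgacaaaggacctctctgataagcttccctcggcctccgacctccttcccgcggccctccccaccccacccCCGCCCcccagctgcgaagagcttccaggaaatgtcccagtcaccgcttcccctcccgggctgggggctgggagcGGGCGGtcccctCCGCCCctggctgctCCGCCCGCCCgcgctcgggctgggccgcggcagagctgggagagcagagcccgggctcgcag

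The promoter of Axl held 2 GC boxes, that of Tyro3 held 6, counting overlapping ones, and that of Pros1 held 5. Gas6 and Mertk held 4 each. All 5 windows thus contained the motif, against 35.9% of 32544 windows of the same length. The Tyro3 window was also the richest in G and C of the 5, at 73.3%, and that of Axl had 60.3%, with a median of 53% over all windows. The cyclic AMP response element TGACGTCA, the site of the CREB and ATF family to which Atf1 belongs, was in 0 of the 5 windows and in 1.80% of all windows. Its shorter form TGACG, which is contained in the full element, was in 0 of 5 and in 20.9% of all windows. The AP-1 site TGANTCA was in 0 of 5 and in 7.79% of all windows. The TEAD site CATTCC was in 1 of 5, the Axl window, and in 14.6% of all windows. These matches describe the letters of the windows and say nothing of binding.

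Axl was the predominant receptor transcript in every tumor. Axl (ENSMUSG00000002602, mm10 chromosome 7, 25757273 to 25788705, minus strand) stood at 41.01 CPM in tumor 3, at a median of 229 CPM and at 455 CPM in tumor 6, with a mean of 227 ± 117 CPM (SD, n = 8). Tumors 1, 2L, 2R, 4a and 4b lay close together between 213 and 264 CPM, and tumor 5 was lower at 140 CPM. The value of tumor 3 rested on 77 counts, against 1329 to 11201 counts elsewhere. Tumor 3 remained the lowest and tumor 6 the highest under each of the 4 library scalings tried, although the level in tumor 3 was 16.2 CPM with no scaling factor. Length-scaled, Axl exceeded 95.6% of the genes that passed the filter.

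Mertk (ENSMUSG00000014361, mm10 chromosome 2, 128698956 to 128802894, plus strand) ranged from 5.33 CPM in tumor 3 through a median of 33.0 CPM to 51.3 CPM in tumor 5, with a mean of 29.9 ± 13.7 CPM (SD, n = 8). The low value of tumor 3 rested on 10 counts. Tumors 2R and 2L followed it at 19.9 and 23.2 CPM, and the remaining tumors other than 5 lay between 31.9 and 36.8 CPM. Tumor 5 was thus highest for Mertk but second lowest for Axl. The antisense gene Gm14011, which lies within Mertk, had no count in any library.

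Tyro3 (ENSMUSG00000027298, mm10 chromosome 2, 119797733 to 119818104, plus strand) was sparse throughout. It ranged from 3.20 CPM in tumor 3 to 8.56 CPM in 2R, with a median of 5.48 CPM and a mean of 5.56 ± 2.20 CPM (SD, n = 8). Tumors 1 and 2R were highest, at 8.35 and 8.56 CPM, and the low end was formed by tumor 3 at 3.20 CPM, 5 at 3.37 CPM and 4b just above it. With library sizes that leave out mitochondrial and abundant noncoding RNA, 4b was the lowest. Counts ran from 6 in tumor 3 to 163 in tumor 6. Per kb, 3.17% of the genes that passed the filter lay below Tyro3.

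Gas6, the ligand of all 3 receptors (ENSMUSG00000031451, mm10 chromosome 8, 13465374 to 13494490, minus strand), stood at 42.4 CPM in 2R, at a median of 188 CPM and at 337 CPM in tumor 5, with a mean of 165 ± 97.5 CPM (SD, n = 8). Tumors 2R, 3 and 1 formed the low end, at 42.4, 71.4 and 76.9 CPM. Tumors 4b, 6, 4a and 2L lay between 177 and 218 CPM. With no scaling factor tumor 3 replaced 2R as the lowest. The end of Gas6 overlaps Tmem255b on the opposite strand, and without a stated strand setting the reads of the overlap cannot be told apart. Tmem255b had at most 1.68 CPM.

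Pros1 (ENSMUSG00000022912, mm10 chromosome 16, 62854307 to 62929346, plus strand) was the most variable of the 5. It ranged from 101 CPM in tumor 1 through a median of 347 CPM to 1272 CPM in 2L, with a mean of 473 ± 382 CPM (SD, n = 8). Tumors 6 and 2R followed 2L at 741 and 534 CPM. Tumor 3, at 162 CPM, lay next to tumor 1 and was the lowest with no scaling factor. Hepatocytes are the main source of circulating protein S. The hepatocyte marker Alb had no count in any library, and the 4 hepatocyte markers together reached at most 1.07 CPM.

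**Figure D1:**
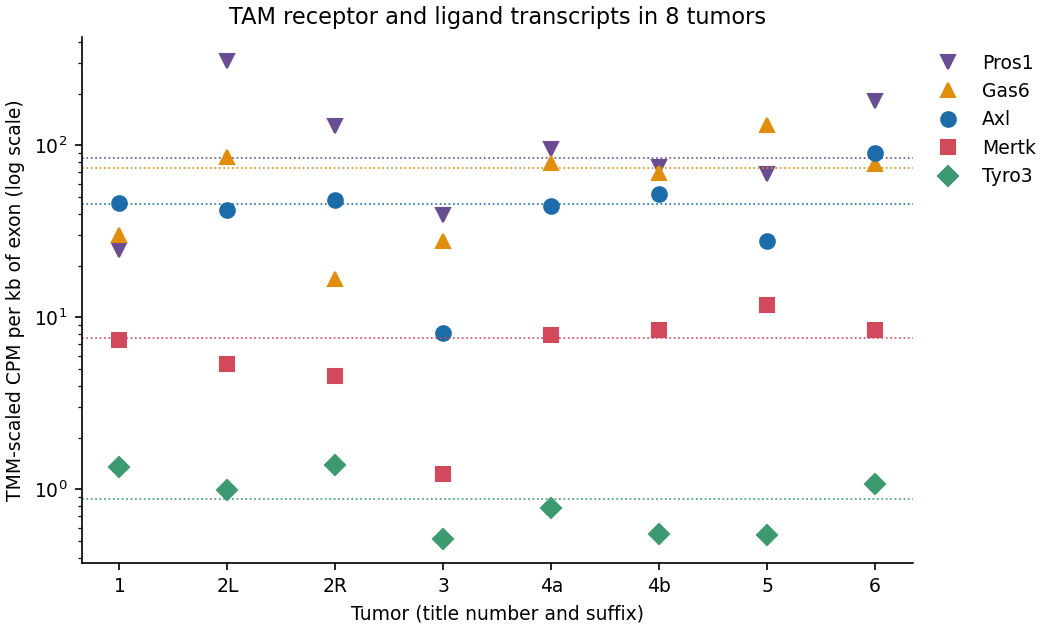
TMM-scaled CPM per kb of exon (log scale) of Pros1, Gas6, Axl, Mertk and Tyro3 in each of the 8 tumors, with a dotted line at each gene's median. Tyro3 is lowest in all 8 tumors and Pros1 highest in 6 at the union exon length, and Axl and Mertk are lowest in tumor 3.

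Over all 8 libraries the spread of 4 of the 5 genes was wide for the table. The SD of log2 CPM was 1.17 for Pros1, 1.02 for Gas6, 1.01 for Axl and 0.997 for Mertk, larger than in 87.0% to 92.5% of the genes that passed the filter, whose median was 0.51. Tyro3 had an SD of 0.57. From the lowest to the highest tumor the fold was 12.6 for Pros1, 11.1 for Axl, 9.63 for Mertk, 7.95 for Gas6 and 2.68 for Tyro3. Of the 5 genes, 3 were lowest in library 3, namely Axl, Mertk and, except with library sizes without mitochondrial and abundant noncoding RNA, Tyro3. For Axl, log2 CPM was 5.36 in library 3 and 7.13 to 8.83 elsewhere. For Mertk it was 2.45 in library 3 and 4.33 to 5.68 elsewhere. The wide spread of Axl and Mertk thus rests largely on library 3, with 77 and 10 counts. Their SD of log2 CPM without library 3 was not computed.

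Per kb of exon, the order of the mean levels was Pros1 (116 ± 93.5 CPM per kb), Gas6 (64.9 ± 38.3), Axl (45.1 ± 23.3), Mertk (6.90 ± 3.17) and Tyro3 (0.897 ± 0.355; SD, n = 8 each). Log2 ratios within a library, which do not depend on library scaling, were averaged over the 6 title numbers and tested with a two-sided exact sign-flip permutation test over the 10 pairs of genes. Axl exceeded Mertk by 2.63 ± 0.76 and Mertk exceeded Tyro3 by 2.81 ± 1.14 on the log2 scale (SD, n = 6), each in 8 of 8 libraries (exact permutation p = 0.0312, the smallest that 6 numbers allow, adjusted p = 0.0446). In all, 7 of 10 pairs had this p, namely every pair that includes Mertk or Tyro3. Their adjusted p follows from how many pairs reach that smallest p. The pairs share genes and are not independent.

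The 3 upper genes did not separate beyond their spread. Pros1 exceeded Gas6 by 0.51 ± 1.19 on the log2 scale (SD, n = 6) and in 6 of 8 libraries (exact permutation p = 0.375, adjusted p = 0.375). Gas6 exceeded Axl by 0.59 ± 1.18 and in 5 of 8 libraries (exact permutation p = 0.375, adjusted p = 0.375). That direction turned with another gene length, to -0.20 when the mean length of the coding transcripts was used. Pros1 exceeded Axl by 1.103 ± 1.16 and in 7 of 8 libraries (exact permutation p = 0.0938, adjusted p = 0.117). Without tumor 1, 3, 5 or 6 only 5 numbers were left, whose smallest possible p is 0.0625, so no pair could pass.

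Among the receptors, Axl made up 69.2% of the length-scaled counts in tumor 5 and 82.4% to 90.4% in the other tumors. Mertk made up 29.4% in tumor 5 and 8.45% to 14.8% elsewhere. Tyro3 ranged from 0.891% in 4b to 5.21% in tumor 3. The receptor sum ran from 9.89 CPM per kb in tumor 3 to 100.02 in tumor 6, and tumor 5 stood apart through its larger Mertk share. All 5 fat cell markers were also at their highest in tumor 5, with a summed level of 115 CPM (8.15 to 18.1 elsewhere), of which Fabp4 made up 105 CPM. Only 1 of the 5, Fabp4, reached a mean of 1 CPM. Tumor 5 was also highest for 4 of 6 platelet markers and 3 of 8 smooth muscle and pericyte markers, and for 8.23% of the genes that passed the filter. The part of these cells in the receptor mixture was not tested.

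The ligand mixture was less even. Pros1 made up 33.9% of the length-scaled ligand counts in tumor 5 45.1% in tumor 1 and 88.7% in 2R. In tumor 5 Gas6 was the more abundant under each of the 3 gene lengths tried. In tumor 1 the order turned with the length: Pros1 made up 50.4% with the longest transcript or the mean coding transcript. The ratio of Pros1 to Gas6 per kb was 0.513 in tumor 5, 0.821 in tumor 1, 1.08 to 1.41 in 4b, 4a and 3, 2.31 in tumor 6, 3.64 in 2L and 7.86 in 2R. As a share of the raw counts of both ligands, Pros1 took 45.2% in tumor 5 (95% exact Clopper-Pearson interval 43.9% to 46.4%) and 92.6% in 2R (91.8% to 93.5%). These intervals cover counting error only, and reads are not independent molecules. The ligand sum divided by the receptor sum, per kb, ran from 0.995 in tumor 1 to 8.16 in 2L. Tumor 1 was the only one of the 8 with a ratio under 1 at the union exon length.

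**Figure D2:**
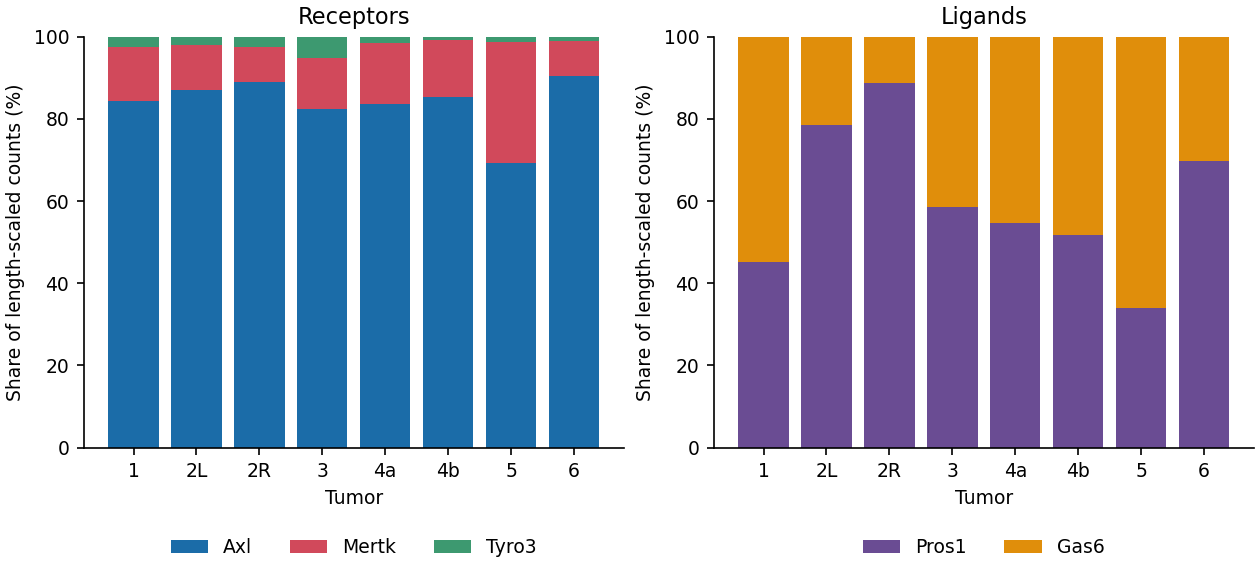
Share of length-scaled counts (%) of Axl, Mertk and Tyro3 among the receptors (left) and of Pros1 and Gas6 among the ligands (right) in each tumor. Axl takes 69.2% to 90.4% of the receptor counts, and Pros1 takes 33.9% to 88.7% of the ligand counts.

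Of the tumors that share a title number, 2L and 2R differed more in the ligands than in the receptors. Gas6 stood at 218 CPM in 2L and 42.4 CPM in 2R, a ratio of 5.15 (95% interval from counting error alone 4.56 to 5.83). Pros1 stood at 1272 CPM in 2L and 534 CPM in 2R, a ratio of 2.38 (2.30 to 2.47). The Gas6 difference was larger than that of 97.3% of the genes that passed the filter, and that of Pros1 larger than 88.4%. Axl stood at 213 CPM in 2L and 244 CPM in 2R, a ratio of 0.873 (0.825 to 0.924), and Mertk at 23.2 CPM in 2L and 19.9 CPM in 2R. Between 4a and 4b each of the 5 genes differed by less than 1.5-fold, with ratios from 0.845 for Axl to 1.41 for Tyro3. Each such pair is 1 library against 1 and has no test.

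**Figure D3:**
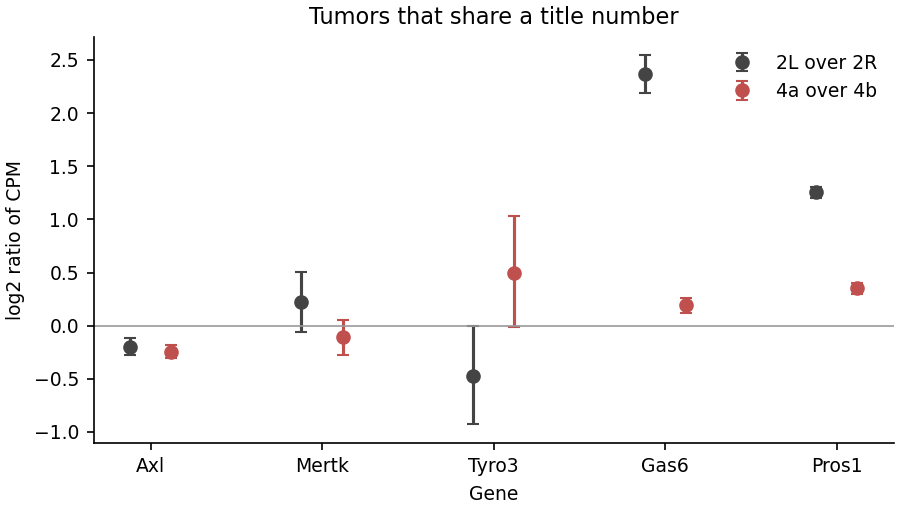
log2 ratio of CPM between tumors that share a title number, 2L over 2R and 4a over 4b, for each gene, with 95% intervals from counting error alone. Gas6 and Pros1 are higher in 2L than in 2R, with log2 ratios of 2.36 and 1.25, and the ratios of 4a over 4b lie between -0.24 and 0.50.

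Markers of some other cells also differed between 2L and 2R. Skeletal muscle markers summed to 19210 CPM in 2L and 103 CPM in 2R, dendritic cell markers to 227 and 46.1 CPM, and endothelial markers to 691 and 128 CPM. Fibroblast markers summed to 3662 CPM in 2L and 18799 CPM in 2R, of which Col1a2 made up 1644 and 13483 CPM. Dcn and Fap went the other way, at 184 and 16.6 CPM in 2L and 152 and 12.1 CPM in 2R. Macrophage markers differed less, with sums of 1948 CPM in 2L and 1579 CPM in 2R. The same holds for T and NK cell markers, at 60.5 and 57.3 CPM. Library 3 had the second highest muscle sum, 6191 CPM, with Pros1 at 162 CPM and Gas6 at 71.4 CPM. What part these cells have in the ligand differences was not tested.

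Whether levels varied among the title numbers was asked with the quasi-likelihood F-test of edgeR, in which the spread rests on the 2 numbers that hold a pair of libraries. It called 0 of the 5 genes and 0 of 11505 genes in all (0% called; smallest adjusted p 0.0902). Before adjustment, 3 of the 5 genes and 24.5% of all genes (2813) lay under 0.05. These 3 were Mertk and Axl, each with an adjusted p of 0.117 by edgeR, and Pros1, with 0.165. Tyro3 and Gas6 had adjusted p of 0.333 and 0.513 by edgeR.

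DESeq2's likelihood ratio test on the same libraries called Axl, Mertk and Pros1, and 20.7% of all genes (2383), with adjusted p of 4.56e-05, 0.00312 and 8.08e-05. Over 13 alternatives the adjusted p ran from 1.29e-06 to 0.498 for Axl, from 2.25e-05 to 0.498 for Mertk and from 9.11e-09 to 0.506 for Pros1. Without 2L, or without 2R, edgeR called 4 of the 5 genes, all but Tyro3. In all it then called 4457 of 11506 or 4548 of 11584 genes.

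Macrophage markers are read beside the receptors because Mertk is a macrophage gene. Of 14 markers, 14 reached a mean of 1 CPM, and their sum ran from 329 CPM in tumor 3 through a median of 1527 CPM to 4036 CPM in tumor 6, the same tumors that were lowest and highest in Axl. The score, the mean log2 CPM of the 13 markers that passed the filter, was related to each of the 5 genes over the 6 title numbers. For Axl, r was 0.906 (two-sided exact permutation p = 0.0139, adjusted to 0.208). Its rank correlation rho was 0.714 (exact permutation p = 0.136, adjusted to 0.678). Leaving out tumors 3 and 6, whose scores lie at the ends, gave r = -0.003: the relation depends on them.

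With the macrophage score Pros1 had r = 0.798 (exact permutation p = 0.0597, adjusted to 0.299). The matching rho was 0.886 (exact permutation p = 0.0333, adjusted to 0.25). Its r was 0.997 without 3 and 6, over 4 numbers. With no scaling factor the relation of Pros1 passed the correction (r = 0.900, exact permutation p = 0.00139, adjusted to 0.0208), whereas under the other alternatives run it did not. Mertk itself had r = 0.734 (exact permutation p = 0.119, adjusted to 0.299) and, without 3 and 6, -0.398.

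Among the 5 genes, Mertk and Gas6 had the most similar order of tumors, with rho = 0.943 (exact permutation p = 0.0167, adjusted to 0.25). Their r was 0.727 (exact permutation p = 0.0569, adjusted to 0.299). Without numbers 2 and 3 the r was 0.876. Axl and Tyro3 had r = 0.689 (exact permutation p = 0.0944, adjusted to 0.299), or 0.639 without 3 and 6. Their rho was 0.543 (exact permutation p = 0.297, adjusted to 0.678). The remaining 11 of 15 relations include Axl with Mertk and Mertk with the score. They had r from -0.348 to 0.788 and rho from -0.086 to 0.6, with exact permutation p of r of at least 0.110. The highest r, 0.788, was that of Axl with Mertk, and without 3 and 6 it was -0.740. In all, 0 of 15 relations passed the correction. Library composition differed too, as library 3 held the largest share of mitochondrial and abundant noncoding RNA, and its part in these relations was not tested.

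**Figure D4:**
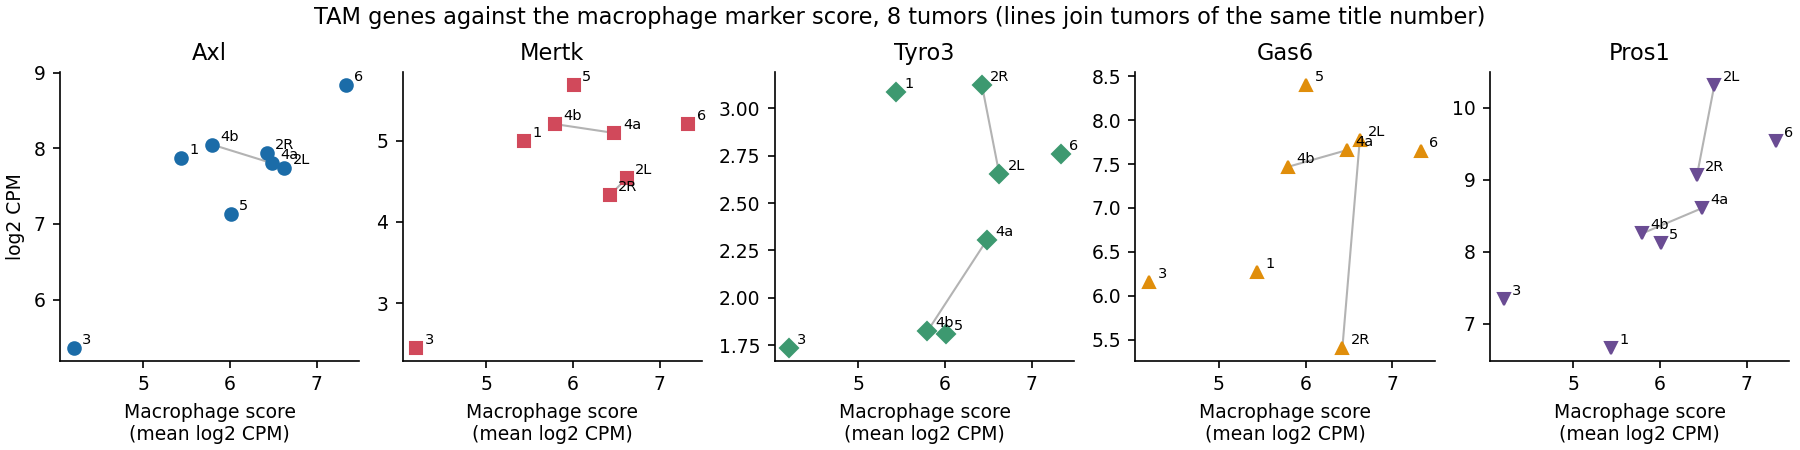
log2 CPM of each gene against the macrophage score (mean log2 CPM of 13 markers) in the 8 tumors, with lines that join tumors of the same title number. Tumor 3 has the lowest score and tumor 6 the highest, and without these Axl shows no slope (r = -0.003).

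The genes closest to each member in profile were found by the root mean square (RMS) difference of gene-centred log2 CPM over the 8 libraries, among 11032 protein-coding genes. For Axl these were Xdh, xanthine dehydrogenase, Camk1, a calmodulin-dependent kinase, and Phyh, a peroxisomal hydroxylase, at 0.23, 0.26 and 0.26 on the log2 scale, against a median of 1.03 over all genes. For Mertk they were Pde3a, a cyclic nucleotide phosphodiesterase, Mcts1 and Hltf, at 0.23, 0.24 and 0.27. For Tyro3 they were the sugar transporter gene Slc2a8, Tpst1 and Dcxr, at 0.14, 0.20 and 0.21, against a median of 0.70 over all genes.

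The ligands had less close neighbours. Gas6 was nearest to Sec14l2, Npr3, a natriuretic peptide receptor, and Vav3, at 0.38, 0.41 and 0.42. Pros1 was nearest to H2-T23, a class I histocompatibility gene, Gbp5, an interferon-inducible GTPase, and Cybb, the phagocyte NADPH oxidase subunit, at 0.31, 0.32 and 0.32. These names depended on single libraries. When each library was left out in turn, 0 to 2 of the 3 nearest genes were the same for Axl and for Pros1, 0 to 3 for Mertk and for Gas6, and 1 to 3 for Tyro3. Slc2a8 stayed among the 3 nearest to Tyro3 each time. Without library 3, 0 of 3 were the same for Axl, Mertk and Gas6. Over the 7 libraries left without it, Pros1 was nearest to H2-T23, H2-Eb1, a class II histocompatibility gene, and Zc3h12d, at 0.29, 0.31 and 0.33.

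The wider pathway was present but did not pass the test among numbers. Of 61 genes in 9 lists, 57 reached a mean of 1 CPM and 49 passed the filter, of which 0 were called by edgeR and 10 had an unadjusted p under 0.05, against 24.5% of all genes. No list has a direction in this test. Ligand maturation genes were present in every tumor. Ggcx, the carboxylase that makes the Gla domain, stood at 72.8 ± 29.3 CPM, Vkorc1, which recycles vitamin K, at 43.1 ± 38.2 CPM with 122 CPM in 2R, and the protease gene Furin at 87.3 ± 16.7 CPM (SD, n = 8 each). Adam10 and Adam17, whose products shed TAM receptor ectodomains, stood at 232 ± 76.9 and 66.6 ± 17.6 CPM. Lgals3, reported as a further Mertk ligand, stood at 149 ± 83.6 CPM.

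Genes of phosphatidylserine exposure and of uptake spanned a wide range of levels. Of 6 exposure genes, 4 passed the filter, and the scramblase genes Xkr8 and Xkr4, at means of 3.59 and 1.37 CPM, did not. Tmem30a, the flippase subunit, stood at 424 ± 183 CPM, the flippase gene Atp11a at 216 ± 87.0 CPM and the scramblase gene Ano6 at 119 ± 28.8 CPM (SD, n = 8). Of 13 other phosphatidylserine receptors and bridging genes 11 reached a mean of 1 CPM. By CPM, which is not scaled to length, Lrp1 was highest at 2051 ± 866 CPM and was lowest in tumor 3 at 312 CPM. The integrin gene Itgav followed at 267 ± 91.2 CPM, and Mfge8, a bridging protein, at 219 ± 109 CPM. Per kb of exon the order differed. C1qa had the highest mean of the 13, at 199 CPM per kb, against 116 for Lrp1, 46.6 for Mfge8 and 24.9 for Itgav. Cd300lf varied most within that list, from 1.87 CPM in tumor 6 to 35.2 CPM in 4b. Rac1, Crk and Dock1, of the engulfment machinery, stood at 291 ± 55.6, 124 ± 18.9 and 120 ± 27.3 CPM, and Elmo1 ranged from 17.0 CPM in 2R to 71.2 CPM in tumor 5.

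Among nuclear receptors and their targets, edgeR called 0 of 7 genes, as it called 0 of 11505 genes in all. Before adjustment 4 of the 7 lay under 0.05 by edgeR, against 24.5% of all genes. Abca1, a cholesterol exporter that liver X receptors control as they do Mertk, reached 1935 CPM in tumor 6 and ranged from 236 to 546 CPM elsewhere. Abcg1 was highest in tumor 6 as well, at 88.7 CPM, whereas Rxra was highest in tumor 3, at 178 CPM, and Pparg ranged from 1.07 CPM in tumor 1 to 9.90 CPM in 4b. Among signaling and feedback genes, Pik3r1 stood at 192 ± 105 CPM, Ptk2 at 121 ± 30.5 and Ifnar1 at 119.5 ± 39.1 CPM (SD, n = 8). Of the reported regulators of Axl, Hif1a stood at 199 ± 73.0 CPM, Wwtr1 at 148 ± 57.6 CPM and Sp3 at 132 ± 24.6 CPM, and Jun ranged from 9.06 CPM in tumor 3 to 71.6 CPM in 2R.

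**Figure D5:**
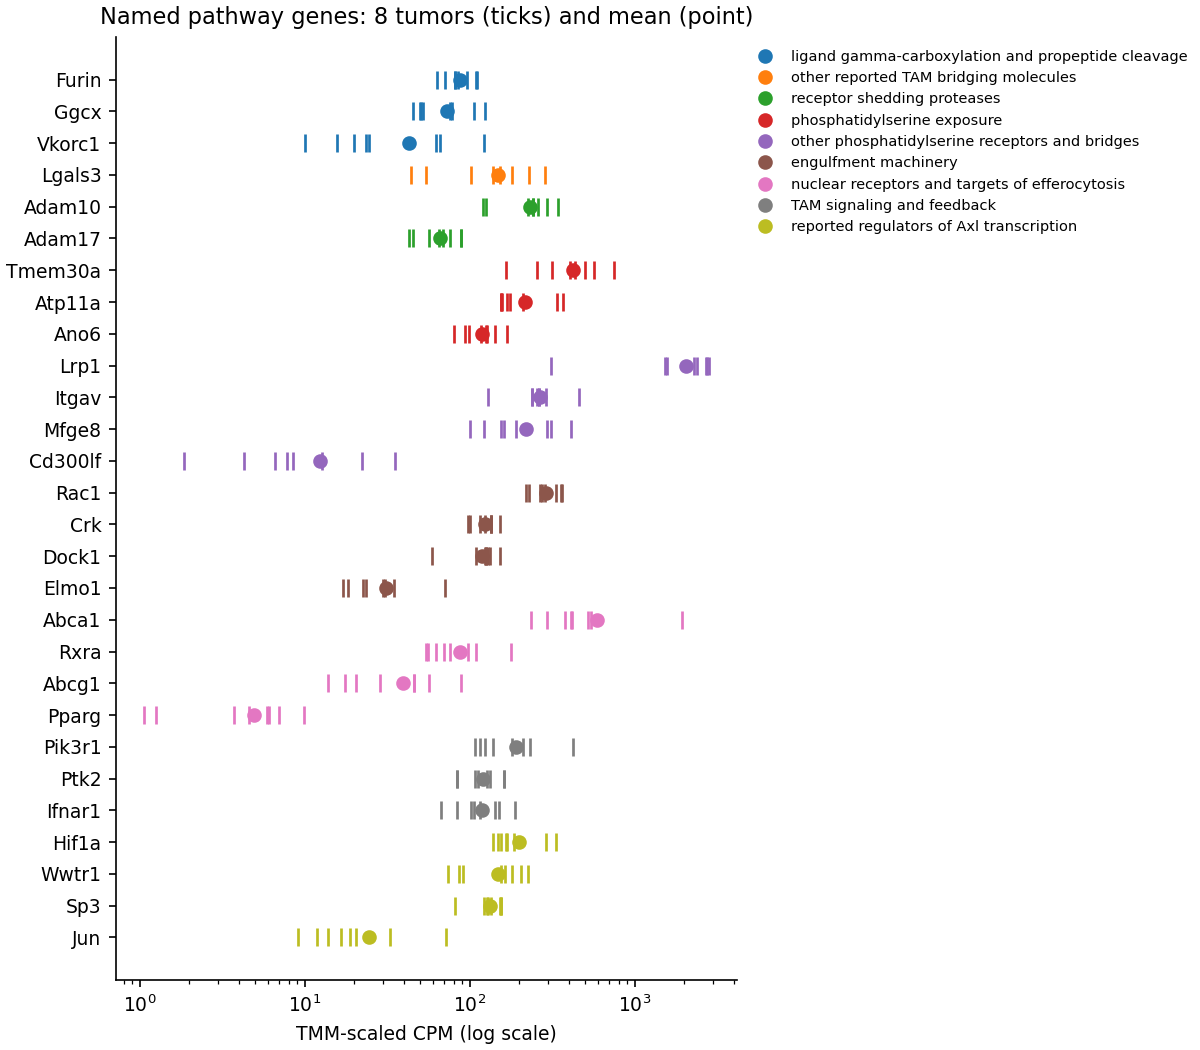
TMM-scaled CPM (log scale) of the pathway genes named from 9 lists, with a tick for each of the 8 tumors and a point for the mean. Lrp1 averages 2051 CPM and Abca1 reaches 1935 CPM in a single tumor, tumor 6.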

How the data were processed

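The authors deposited 1 table of raw counts, whole numbers per Ensembl gene for 8 libraries. The submitters' processing notes name mm10 and 4 tools: RSEM, featureCounts, STAR 2.7.5a and cutadapt. Their order, which tool counted, the annotation and strand handling are not given in the sources used here. Identifiers were matched to GENCODE M21 (99.5% named; 259 were not). The count analysis ran under R 4.3.3, in edgeR 4.0.16, where filterByExpr for 1 group (minimum count 10, or 0.92 CPM in each library) kept 11505 genes. TMM scaling was used, and a prior count of 2 for log2 CPM. Gene length was the union of exons. The F-test among title numbers had 2 residual degrees of freedom and was adjusted after Benjamini and Hochberg at 0.05 over all genes tested. DESeq2 1.42.0, other scalings, filters and gene lengths, and leaving out libraries, were alternatives. Scripts were tested on simulated data.

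The 5 genes and all lists were chosen with earlier results of these data known. Named pathway genes were from each list the top 3 by mean CPM and the 1 most variable by SD of log2 CPM, among those that passed the filter. C1qa was named besides these, for its level per kb. From each cell type list, the 2 of highest mean were examined, beside the list's sum. A gene that this rule names is not reported here. For each of the 5 genes the 3 protein-coding genes of most similar profile were named. Sums for T and NK cell and for platelet markers reached at most 105 and 56.1 CPM, and for Schwann and melanocytic markers ranged from 51.1 to 643 CPM.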

Additional observations from a re-analysis of the deposited data

Results flagged for a closer look

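Values were checked for a tumor whose gap to its nearest neighbour exceeded 0.526 of the range over 8 tumors. Chance gives such a gap in about 1 of 20 groups of 8 independent draws from a normal distribution. The values here are not such draws. Ttn, for one, had a mean of 2190 CPM and a median of 39.8 CPM, and some tumors share a title number. The limit therefore served only to pick values, and their number was not tested against chance. Of 61 values, 21 had such a gap. None was the CPM of Axl, Mertk, Tyro3, Gas6 or Pros1, but mixtures of them were: the Axl share of receptor counts was low in tumor 5 (69.2%), and the ratio of Pros1 to Gas6 per kb was high in 2R (7.86).

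Among pathway genes, tumor 6 stood apart in Abca1 (1935 CPM), tumor 5 in Elmo1 (71.2 CPM) and 2R in Jun (71.6 CPM). Tumor 3 was high in Rxra (178 CPM) and Pik3r1 (425 CPM) and low in Dock1 (59.1 CPM) and Sp3 (81.5 CPM).

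Among cell type markers, tumor 6 was high in Mrc1 (1231 CPM), Lyz2 (887 CPM) and Cdh19 (485 CPM). Tumor 2L was high in Itgax (127 CPM), Flt3 (82.3 CPM), Ttn (12172 CPM), Myh4 (3343 CPM) and Ttr (0.901 CPM). Tumor 3 was high in Il2rb (86.3 CPM) and Mitf (130.5 CPM), and tumor 5 in Fabp4 (105 CPM) and Adipoq (4.63 CPM).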

How the results depend on the processing

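No paired analysis was possible because the labels give 1 group. The count of genes called among title numbers was 0 of 11505 with edgeR as reported. It was 3791 of 11505 with no scaling factor, 6260 of 30321 with no filter on low counts and 2383 of 11505 with DESeq2. When 1 library was left out it ran from 0 to 4548 (of 11584, without 2R). The causes were not tested. With no scaling factor all 5 genes were called, and with no filter all but Tyro3. The count of gene pairs differing in level was 7 as reported and under other lengths or 2 added counts, and 0 to 7 when 1 library was left out, 0 arising where only 5 numbers remained. The relations past the threshold were 1 with no scaling factor and 0 under the other alternatives run. Gas6 over Axl reversed to -0.20 with the mean length of coding transcripts. Without mitochondrial and abundant noncoding RNA in the library size, mean Mertk was 44.7 CPM and mean Tyro3 8.28 CPM, with 4b then the lowest tumor for Tyro3; the levels of the other 3 genes moved by less than their SD, as did all 5 under the remaining scalings and without tumor 3. The profiles without each library, and the ligand ratio under other gene lengths, were alternatives chosen after seeing the data. Depth limits Tyro3 and Mertk in tumor 3 (6 and 10 counts).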

Other observations

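Phosphatidylserine receptors that did not pass the filter in all 8 tumors were uneven, and those named here were chosen after their values were seen. Adgrb1, an engulfment receptor known from the brain, stood at 451 CPM in tumor 3 (846 counts) and 125 CPM in tumor 5 (1186 counts), against 41.6 CPM in 2L, 15.98 in 1, 8.88 in 2R and at most 1.12 CPM in 4a, 4b and 6. Its highest level was in the tumor with the lowest Axl, Mertk and, with TMM scaling, Tyro3. That library also held the highest level for 29.6% of the genes that passed the filter and the lowest for 31.2%. Tumor 5, second highest in Adgrb1, had the highest Mertk, at 51.3 CPM. A relation of Adgrb1 to these genes was not tested. Havcr2, an immune checkpoint receptor also reported to bind phosphatidylserine, was highest in 2L at 23.0 CPM (588 counts) and lowest in tumor 1 at 1.78 CPM. Tub, reported as a further bridging molecule for Mertk, stood at 22.1 CPM in 2L (563 counts) and at most 5.33 CPM elsewhere. Timd4 and Havcr1, further phosphatidylserine receptors, were sparse, with at most 10 and 3 counts in a tumor and means of 0.221 and 0.110 CPM.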
